A study of Mus musculus with 14 samples.

Results

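The 9 genes described here are 4 homeobox genes of the Dlx family (Dlx1, Dlx2, Dlx5 and Dlx6), 3 further transcription factors of ventral forebrain patterning and interneuron fate (Gsx2, Nkx2-1 and Lhx6) and the 2 enzymes that make GABA (Gad1 and Gad2). They were taken by symbol from 41934 genes in tables of whole fetal brain RNA sequencing, and each symbol had 1 row. All 14 libraries were from individual whole brains of male fetuses on the C57BL/6J background. At embryonic day E13.5 there were 4 Dio3+/+ and 2 Dio3-/- brains, and at E18.5 there were 3 Dio3+/+ and 5 Dio3-/- brains. Dio3 encodes the type 3 deiodinase, which inactivates thyroid hormone, and Dio3-/- fetuses carry point mutations that abolish the enzyme while its mRNA is still made. The fetuses came from matings of heterozygous parents, so the dams were heterozygous for both genotypes.

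The tables give 1 mean per gene and age, taken by the authors over all libraries of that age and both genotypes after division by size factors. No value per library was at hand, so the means carry no error here, and no level is given for Dio3+/+ or Dio3-/- alone. The 2 ages were normalized separately and differ in the share of Dio3-/- brains (33.3% at E13.5 and 62.5% at E18.5). The libraries came from 2 sequencing batches, with different library kits and sequencers, and the labels do not give the batch of each. An effect of age thus cannot be told apart from one of genotype make-up or batch make-up. Differences between the ages are therefore described below without a test.

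In the ventral forebrain, GABAergic neurons arise from the ganglionic eminences, and many of them migrate tangentially to the cortex as interneurons. Gsx2 patterns the lateral ganglionic eminence and Nkx2-1 the medial ganglionic eminence. Dlx genes act in progenitors and postmitotic cells, where they promote GABAergic differentiation, and Lhx6 acts after Nkx2-1 in interneurons of medial origin. Gad1 and Gad2 encode the enzymes GAD67 and GAD65, which convert glutamate to GABA in GABAergic neurons of all brain regions.

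The 7 factors share a DNA-binding homeodomain, and the coding bases of its end are printed for 6 of them to show how the Dlx genes differ from each other and from the other factors in the stretch that reads DNA. Each sequence runs 5′ to 3′ on the coding strand over homeodomain positions 45 to 60, from GENCODE transcripts on GRCm38. Capitals mark the codons of positions 48 to 51, the most conserved run of the recognition helix.
Dlx1: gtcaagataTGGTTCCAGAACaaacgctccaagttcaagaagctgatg
Dlx2: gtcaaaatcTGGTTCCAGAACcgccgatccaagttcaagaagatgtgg
Dlx5: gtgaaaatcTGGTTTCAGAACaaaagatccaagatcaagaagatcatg
Dlx6: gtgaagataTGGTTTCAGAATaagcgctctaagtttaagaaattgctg
Gsx2: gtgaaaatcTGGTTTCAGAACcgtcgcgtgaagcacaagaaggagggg
Lhx6: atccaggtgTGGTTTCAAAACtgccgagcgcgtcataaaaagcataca

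The Dlx segments lie in exon 3 of 3 of their transcripts, at chr2:71532264-71532311 on the + strand for Dlx1, chr2:71544877-71544924 on the - strand for Dlx2, chr6:6878441-6878488 on the - strand for Dlx5 and chr6:6867041-6867088 on the + strand for Dlx6. The Gsx2 segment is in exon 2 of 2 at chr5:75077127-75077174 on the + strand. The Lhx6 segment begins in exon 7 of 10 and crosses an intron, spanning chr2:36091095-36091325 on the - strand.

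Over the 60 codons of the homeodomain, translated with the standard code, Dlx1 and Dlx6 were identical at 58 residues and Dlx2 and Dlx5 at 56. Linked neighbours were less alike, with 52 residues shared by Dlx1 and Dlx2 and 51 by Dlx5 and Dlx6. The Dlx homeodomains were 50 to 51.7% identical to that of Nkx2-1, 43.3 to 46.7% to that of Gsx2 and 28.3 to 30% to that of Lhx6. In spite of this likeness the longest exact stretch common to transcripts of any pair of Dlx genes was 36 bases (Dlx1 and Dlx6), shorter than the 75-base reads.

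**Figure D1:**
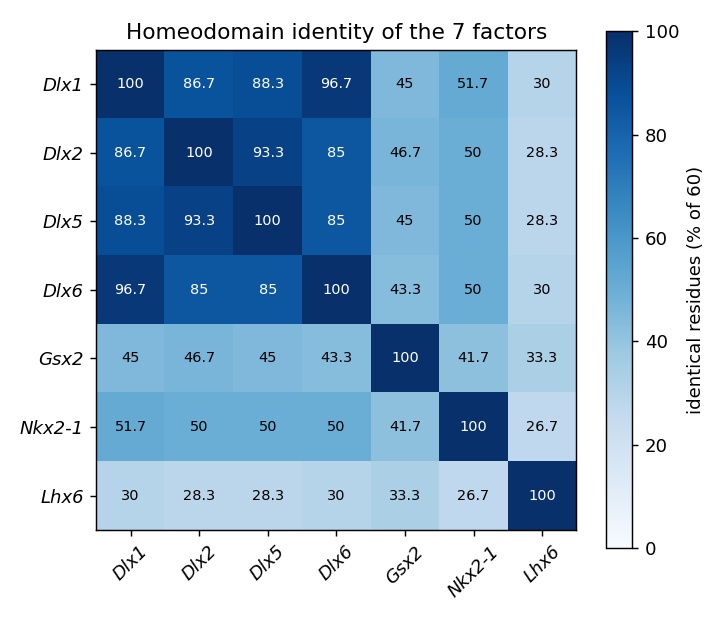
Percent of the 60 homeodomain residues that are identical between each pair of the 7 transcription factors (rows and columns, with darker colour for higher identity). The 4 Dlx genes form a block from 85 to 96.7%, and Lhx6 is the most distant from every Dlx gene.

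The Dlx genes sit in convergently transcribed pairs. Dlx1 (chr2:71528113-71533981, + strand) and Dlx2 (chr2:71543408-71546754, - strand) are 9.426 kb apart, and Dlx6 (chr6:6863334-6868568, + strand) and Dlx5 (chr6:6877805-6882085, - strand) are 9.236 kb apart. Both pairs are accompanied by antisense transcripts, and the reads were counted without strand. Dlx1as overlaps 6.21% of the exon bases of Dlx1, and Dlx6os2 overlaps 4.38% of those of Dlx6, so reads in these stretches cannot be assigned to a strand. Dlx2 and Dlx5 have no exon overlapped by another gene. Of the 75-base stretches of each gene's transcripts, 4.68% in Dlx1 (with Dlx1as), 1.98% in Dlx6 (Dlx6os2 among others) and 1.38% in Nkx2-1 also occur in other genes. The share was 0.667% in Lhx6, 0.467% in Gad1 and 0.0517% in Gad2, and 0 in Dlx2, Dlx5 and Gsx2. Dlx6 and Nkx2-1 have an exact run of 89 bases in common, and shared stretches of Nkx2-1 also occur in many genes other than Dlx6. Reads in all these shared stretches are uncertain.

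The mean normalized count of Dlx1 was 2368 at E13.5 and 2352 at E18.5, and that of Dlx2 was 1333 and 886. Dlx5 had a mean normalized count of 464 at E13.5 and 465 at E18.5, and Dlx6 had 258 and 290. To compare genes, each mean was divided by the length of the gene's exons in kb, which gives the level per kb. On this scale Dlx1 was at 439 and 436, Dlx2 at 467 and 310, Dlx5 at 205 and 205, and Dlx6 at 109 and 122, at E13.5 and E18.5 respectively. The genes of the Dlx1/Dlx2 pair were thus above those of the Dlx5/Dlx6 pair at both ages. The level per kb of Dlx1 was 0.940 times that of Dlx2 at E13.5 and 1.40 times at E18.5. The order of these neighbours at E13.5 is not firm, since with the longest transcript as length the ratio was 1.07. Dlx5 was at 1.89 times the level per kb of Dlx6 at E13.5 and 1.68 times at E18.5.

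Summed over the 4 Dlx genes, the level per kb was 1220 at E13.5 and 1074 at E18.5, without scaling between the ages. Their log2 ratios below, which are scaled, were 0.21, 0.22 and 0.38 for Dlx1, Dlx5 and Dlx6 and -0.37 for Dlx2. Among genes with a mean of at least 10, the level per kb of Dlx1 was at percentile 82.9 at E13.5 and 85.9 at E18.5, and that of Dlx2 at 84.0 and 79.5. Dlx5 was at percentile 66.0 and 70.2, and Dlx6, the lowest of the 4, at 51.9 and 57.8. The level per kb of the median gene was 98.8 at E13.5 and 85.8 at E18.5, below that of each of the 4 Dlx genes. This does not hold for Dlx6 when genes are ranked by the mean normalized count without length, where Dlx6 was at percentile 43.6 at E13.5 and 47.4 at E18.5. In that ranking Dlx2 was at percentile 73.2 and 68.2, Dlx5 at 52.9 and 55.6, and Dlx1 at 83.7 and 85.8.

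**Figure D2:**
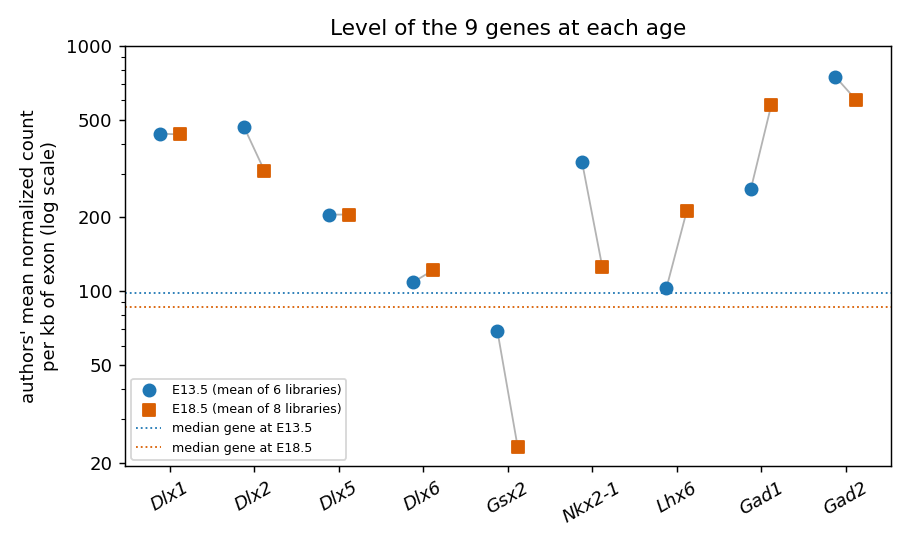
Level per kb of exon of the 9 genes (log scale) as the mean over all libraries of both genotypes at E13.5 (circles, 6 libraries) and E18.5 (squares, 8 libraries), with the median gene of each age as a dotted line and no error bars because values per library were not at hand. The levels are not scaled between the ages. Gsx2 is the only one of the 9 below the median gene at both ages, while Gad1 and Lhx6 stand higher and Nkx2-1 and Gsx2 lower at E18.5 than at E13.5.

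The levels of Nkx2-1 and Gsx2 were lower at the later age. Nkx2-1 (chr12:56531958-56536908, - strand) had a mean normalized count of 959 at E13.5 and 358 at E18.5, or 337 and 126 per kb. Gsx2 (chr5:75075601-75077893, + strand) had 114 and 38.4, or 68.5 and 23.1 per kb, and was the lowest of the 9 genes at both ages. Lhx6 (chr2:36081953-36105408, - strand) showed the opposite order, with a mean normalized count of 496 at E13.5 and 1019 at E18.5, or 103 and 212 per kb. The level per kb of Lhx6 was 0.306 times that of Nkx2-1 at E13.5 and 1.69 times at E18.5. The level per kb of Dlx1 was 6.40 times that of Gsx2 at E13.5 and 18.9 times at E18.5.

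Nkx2-1 is also expressed in the hypothalamus, thyroid and lung, and the whole brain mixes its sources. Thyroglobulin (Tg) had a mean normalized count of 8.93 at E13.5 and 11.3 at E18.5. The thyroid list also held Tshr, at 27.4 and 104, and Slc5a5, at 23.6 and 59.0, both over 2-fold higher at E18.5 (log2 ratios 2.14 and 1.54). The lung surfactant genes Sftpc, Sftpb and Sftpa1 were at 3.16 or below at both ages. Of 6 hypothalamic markers, 5 reached a mean of 10 at both ages, 4 of them over 2-fold lower at E18.5 and 1, Pomc, over 2-fold higher. The summed level per kb of the hypothalamic list was 1024 at E13.5 and 294 at E18.5. The parts of the thyroid, lung and hypothalamus in the Nkx2-1 difference were not tested.

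Of the GABA-synthesizing enzymes, only Gad1 was past 2-fold between the ages. With the ages scaled to their summed means, the log2 ratio was 1.35 for Gad1 and -0.09 for Gad2. Gad2 (chr2:22622205-22693874, + strand) had a mean normalized count of 4399 at E13.5 and 3552 at E18.5, and its level per kb, 749 and 605, was the highest of the 9 at both ages. Gad1 (chr2:70553072-70602014, + strand) had a mean normalized count of 2000.2 at E13.5 and 4373 at E18.5, or 262 and 572 per kb. Its place at E13.5 depends on the length used, since over all exons it was below Dlx1, Dlx2 and Nkx2-1 and with the longest transcript, at 555 per kb, it was above Dlx2 (539) and Nkx2-1 (341). The order of the enzymes at E18.5 depends on the length used, since Gad1 was at 0.947 times the level per kb of Gad2 over all exons and at 1.96 times with the longest transcript. At E13.5 Gad1 was below Gad2 under both lengths, at 0.350 and 0.725 times.

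For the ratio between ages each table was scaled to its summed mean, and the log2 ratio of E18.5 to E13.5 was taken. Of the 9 genes, 2 were over 2-fold higher at E18.5, where 11.1% of all 17794 genes with a mean of at least 10 at both ages were, and 2 were over 2-fold lower, where 6.36% of all genes were. The log2 ratio was 1.35 for Gad1 (2.54-fold higher) and 1.26 for Lhx6 (2.39-fold higher). It was -1.35 for Gsx2 (2.55-fold lower) and -1.20 for Nkx2-1 (2.30-fold lower). Gad1 and Lhx6 stood at percentiles 93.0 and 92.1 of the ratio over all genes, and Gsx2 and Nkx2-1 at 3.59 and 4.48.

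The other 5 genes were within 2-fold. The log2 ratio was 0.38 for Dlx6, 0.22 for Dlx5, -0.09 for Gad2 and -0.37 for Dlx2. That of Dlx1 was 0.21, and without scaling between the tables it was -0.0099. The median log2 ratio was 0.21 over the 9 genes and -0.07 over all genes, whose quartiles were -0.43 and 0.40. Other scalings moved the median of all genes to between -0.28 and 0.

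**Figure D3:**
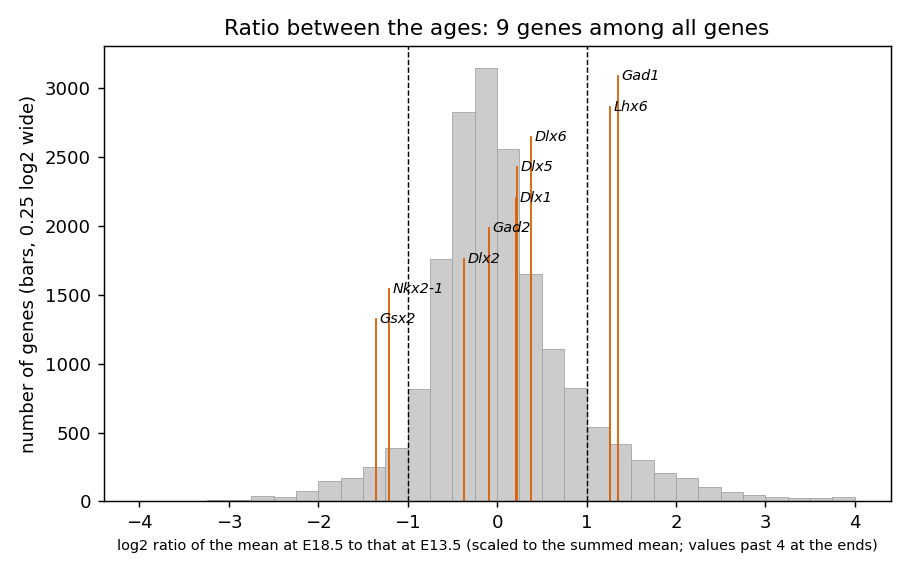
Number of genes (vertical axis) by log2 ratio of the mean at E18.5 to that at E13.5 (horizontal axis, bars 0.25 wide) for the 17794 genes with a mean of at least 10 at both ages, with the 9 genes as labelled lines whose heights carry no value and dashed lines at 2-fold. Gad1 and Lhx6 lie beyond the right dashed line, Gsx2 and Nkx2-1 beyond the left one, and the 4 Dlx genes and Gad2 between them.

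The antisense transcripts of the Dlx pairs were within 2-fold between the ages, as the 4 Dlx genes were. Dlx6os1, also known as Evf2, had a mean normalized count of 1855 at E13.5 and 1639 at E18.5, above that of Dlx5 or Dlx6 themselves. Dlx1as was at 139 and 130, and Dlx6os2 at 33.5 and 32.2. The log2 ratios between the ages were 0.04, 0.13 and 0.16. The remaining family members were low, with Dlx3 at 22.6 and 8.06 and Dlx4 at 0.930 and 3.47.

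Of 16 other factors of the ganglionic eminences and their progenitors, 6 were over 2-fold lower at E18.5 and 0 over 2-fold higher, with a median log2 ratio of -0.85. Olig2 was just under 2-fold higher (1.97-fold, log2 ratio 0.98). When the tables were scaled so that the median log2 ratio of all genes was 0, it was past 2-fold (log2 ratio 1.04). Gsx1, the paralog of Gsx2, had the largest difference at -2.61, with mean normalized counts of 241 and 34.0. Meis2, found also in maturing striatal neurons, was at 12156 and 10672 with a log2 ratio of 0.03. Nr2f1 and Nr2f2, abundant in the caudal eminence, had log2 ratios of -0.89 and -0.88.

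Of 13 factors of migrating and maturing interneurons, 3 were over 2-fold higher and 2 over 2-fold lower at E18.5, and their median log2 ratio was 0.06. Npas1 had mean normalized counts of 61.8 and 229 (log2 ratio 2.11), and Zeb2 had a log2 ratio of 1.12. Pou3f4 and Zfhx3 were lower at E18.5, with log2 ratios of -1.97 and -1.19. Among 10 receptors and cytoskeletal genes of migration, 1 was over 2-fold higher, Met, with mean normalized counts of 241 and 1072 (log2 ratio 2.37), and 0 were over 2-fold lower. The chemokine receptor Cxcr4 had a log2 ratio of -0.86, Robo1 of -0.42, Epha4 of 0.23 and Dcx, a microtubule protein of migrating neurons, of 0.20.

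Genes of GABA transport and breakdown were higher at E18.5, as Gad1 was. Of 6 genes, 3 were over 2-fold higher and 0 over 2-fold lower, with a median log2 ratio of 0.96. Slc6a11, the transporter GAT3 found largely on astrocytes, had mean normalized counts of 489 and 4973 (11.8-fold higher). Slc6a13, another GABA transporter, had a log2 ratio of 1.99. The vesicular transporter Slc32a1 was at 1319 and 1606, with a log2 ratio of 0.50.

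Genes listed as interneuron subtype markers were mostly higher at E18.5. The whole brain mixes all cells that express them, and the part of interneurons in these ratios was not tested. Of 14 genes, 10 were over 2-fold higher and 1, Lamp5, over 2-fold lower, and the median log2 ratio was 1.33. The neuropeptide genes Sst and Npy had mean normalized counts of 818 and 1585 and of 268 and 951, with log2 ratios of 1.17 and 2.05. Calb2 had a log2 ratio of 2.05, Cck of 2.63 and Htr3a of 2.33. Parvalbumin (Pvalb) and Vip, which mark interneurons that mature after birth, were at 22.0 and 17.9 and at 13.8 and 10.7.

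**Figure D4:**
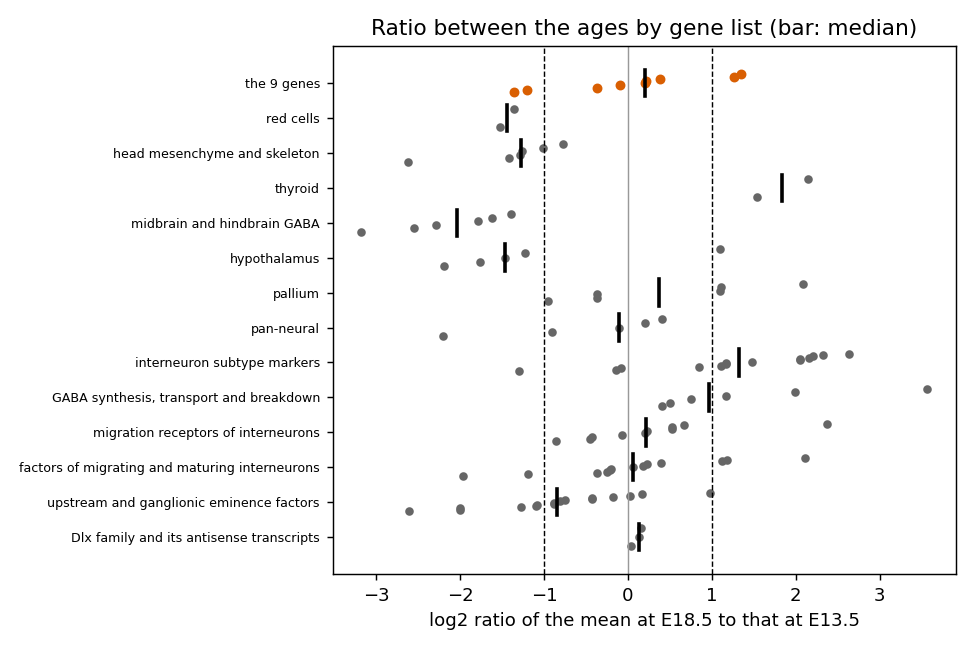
Log2 ratio of the mean at E18.5 to that at E13.5 (horizontal axis) for each gene of the 13 lists that had any gene with a mean of at least 10 at both ages (points, with the median as a bar) and for the 9 genes in colour at the top, with dashed lines at 2-fold. Interneuron subtype markers lie mostly to the right and midbrain and hindbrain GABA factors wholly to the left.

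Because Gad1 and Gad2 mark all GABAergic neurons, markers of other regions were placed beside them. All 6 factors of midbrain and hindbrain GABA neurons were over 2-fold lower at E18.5, with a median log2 ratio of -2.04 and a summed level per kb of 2360 at E13.5 and 511 at E18.5. Helt had the largest difference (-3.18), and Gata3, Tal1 and Lhx5 were at -1.79, -1.62 and -2.55. Of 6 forebrain markers in the pallium list, 3 were over 2-fold higher and 0 over 2-fold lower. Neurod6 and Tbr1, of excitatory cortical neurons, had log2 ratios of 2.08 and 1.11. Emx1, Emx2 and Eomes were lower within 2-fold, with log2 ratios of -0.37, -0.95 and -0.37. The part of these regional differences in the ratios of the 9 genes was not tested. Fewer cells of a type and less RNA per cell cannot be told apart in whole brain.

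The tissue label held against its markers. The pan-neural genes were high at both ages, with Tubb3 at a mean normalized count of 37118 and 29678 and Map2 at 58675 and 66708. The progenitor genes Nes and Sox2 had log2 ratios of -2.21 and -0.91. Genes of tissues around the brain were also detected. Of 7 genes of head mesenchyme and skeleton, where Dlx5 and Dlx6 are also expressed, 6 reached a mean of 10 at both ages and 5 were over 2-fold lower at E18.5, and the summed level per kb was 482 at E13.5 and 156 at E18.5. Hand2 was at 2.84 and 0.788. The red cell genes Hba-a1 and Hbb-bt had log2 ratios of -1.35 and -1.53. The part of this tissue in the levels of Dlx5 and Dlx6 was not tested.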

How the data were processed

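RNA was measured in whole brains of 14 male mouse fetuses, grouped by the genotype and age in the labels. Per the labels and methods, the authors trimmed single-end 75-base reads with cutadapt 3.1, aligned them to GRCm38 with STAR 2.5.3a, removed rRNA and tRNA reads with bedtools 2.26.0, assigned them to GENCODE VM22 genes by HTSeq (union mode, strand ignored), corrected sequencing batch effects with ComBat-seq and ran DESeq2 1.30.1 within each age. The labels do not give the batch of a library, and the adjustment can change a mean. The deposited mean normalized count is a signal, the average over all libraries of an age after division by size factors. The other deposited columns hold the authors' own genotype comparison (log2 fold change, its standard error, Wald statistic, p-value and adjusted p-value). They were not used, so no genotype difference is reported. Columns of per-sample values numbered 0, and the depth of each library is unknown. The log2 shift between the summed means of the tables was -0.22.

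The lengths came from GENCODE vM21 (GRCm38), 1 release older, which matched 41897 of 41934 identifiers. The level per kb is the mean over the union of exons in kb, and it and its sums over lists were not scaled between the ages. Ratios between ages used tables scaled to their sums, without pseudocount, over genes with a mean of at least 10 at both ages, and "past the fold" means over 2-fold. The ratio code was tested on simulated data. Python 3.11.15, pandas 2.3.3, numpy 2.4.6 and Biopython 1.88 were used. No test was run, because each gene had 1 pooled mean per age. The genes and the 14 lists were chosen with earlier results of these data known. Genes named are all 9 members, the 3 with the highest level per kb and the 2 with the largest ratio of each list, and genes whose exons overlap a member's. Some genes that this rule names, and 1 sequence, are not reported here. Other list genes (Dlx3, Dlx4, Olig2, Lamp5, Pvalb, Vip, Emx1, Emx2, Eomes and Hand2) were chosen after their values were seen.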

Additional observations from a re-analysis of the deposited data

How the results depend on the processing

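No paired analysis was possible because the tables hold no values per library. The log2 ratio between ages kept its sign in 26 of 27 alternatives of scaling over the 9 genes, and that of Dlx1 was -0.0099 as deposited, against 0.21. With a mean of at least 50 required at both ages, 1 of the 9 genes was over 2-fold lower in place of 2, because the E18.5 mean of Gsx2 is under 50. The 11 other counts past the fold stayed within 1.5 times. The level per kb moved by over 1.5 times in 4 of 54 alternatives, those of Dlx5 and Gad1 at both ages with the longest transcript as length. Percentiles moved by over 10 points in 6 of 36 alternatives, all with genes ranked by the mean normalized count without length. They were those of Dlx2 and Dlx5 at both ages, Dlx6 at E18.5 and Nkx2-1 at E13.5. What depth limits cannot be stated, since the depth of each library is unknown, and no error between brains could be given.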
